A study of Arabidopsis thaliana with 32 samples.

Results

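Spaceflight was compared with ground growth in the roots of 4 day old Arabidopsis thaliana seedlings of the accession Col-0, the standard laboratory line. The comparison holds all 1414 loci that the authors' deposited table lists for these 2 groups, of 9013 loci listed in the 8 tables of the series. No value chose among them: every listed locus was kept, and each had passed the authors' own test at a q-value of 0.05 or less. The 1414 loci are 7.21% of the 19612 that were tested, with 608 higher in flight (3.1%) and 806 lower (4.11%).

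The flight group germinated and grew in the Veggie plant unit (VPS) aboard the International Space Station, and the ground group grew in the matching unit inside the ISSES chamber at Kennedy Space Center. That chamber repeated the temperature, carbon dioxide and lighting of the station with a delay of 48 h. Both groups carried no transgene that the labels name, and both were raised in the light on vertical plates of solid 0.5x MS medium with Phytagel. They were fixed in RNAlater inside KFT tubes at 4 days, and the roots were later dissected from the preserved seedlings. Each group has 4 biological replicates, and a replicate pooled 5 to 8 whole roots. RNA from all root cell types was thus read together. A lower level from fewer cells of a type and a lower level from less RNA per cell cannot be told apart.

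Gravity, light and mechanical load are all known cues for root growth. In the root, the endodermis seals the path between cells with the lignin ring of the Casparian strip and later coats its walls with suberin. Light reaching a root acts through the transcription factor HY5, which is known to turn on flavonoid synthesis and plastid protection genes. Low energy acts through the kinase SnRK1, whose known targets include SEN1 and genes reached through bZIP transcription factors. The cost of growth is met by ribosomes, whose proteins are encoded by large families of close copies.

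The table gives 1 pooled level per group in FPKM, the number of fragments scaled to transcript length and library size, so that the level of each replicate cannot be shown. Changes are given as log2 of flight over ground, and the number behind ± is a standard error derived from the authors' test statistic. Absence from the table says that a gene was not called and nothing about whether it changed. Called increases had a median of 0.59 and called decreases a median of -0.70 in the authors' deposited table. Changes of 1 log2 unit or more were fewer, at 99 increases with a level above 0 in both groups and 174 decreases in the authors' deposited table. The genes that rose had a median of 57.9 FPKM in flight and 35.4 FPKM on the ground in the authors' deposited table. Those that fell had a median of 24.9 FPKM in flight and 39.7 FPKM on the ground in the authors' deposited table. Every listed locus lies on chromosomes 1 to 5. Of the loci 1328 name 1 gene, 80 name several and 6 name none, and gene counts use the 1324 genes listed once in a locus of their own. The share given for a gene list is over all its members, tested or not. Members in loci of several genes stay in that total and are not counted as called. Shares of all loci are over the 19612 loci tested, so the denominators are unlike. Some deposited loci run well past the gene they name, as for BBX30 and BT2, and AT3G55230 and TT5 are listed with the same bounds, as are CYP98A3 and UMAMIT11. The library kit keeps no strand, so reads of antisense partners cannot be told apart.

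**Figure D1:**
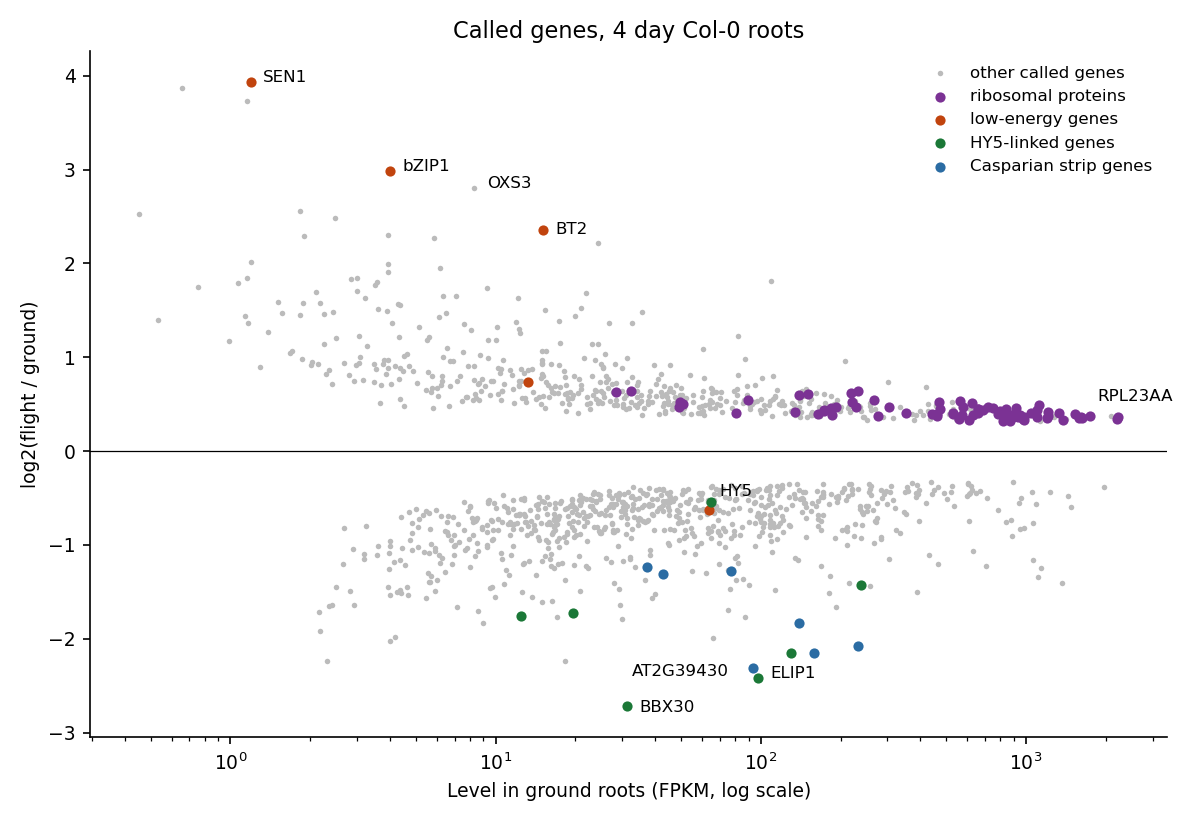
The level in ground roots (x axis, FPKM, log scale) is set against log2 of flight over ground (y axis) for each called gene of the authors' deposited table with a level above 0 in both groups. Coloured points are called members of 4 gene lists: SEN1 stands highest at 3.93, the Casparian strip genes run from -2.31 to -1.23, and the ribosomal protein genes lie between 0.32 and 0.64 at high levels.

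Marker genes of tissues and cell types were looked up among the called genes. Only called genes are listed, so the presence or absence of a marker cannot verify the labelled tissue. The iron uptake regulator FIT, which is in none of the marker lists, had 28.7 FPKM in flight and 42.8 FPKM on the ground in the authors' deposited table. The xylem protease gene XCP2 had 30.9 FPKM in flight and 54.4 FPKM on the ground in the authors' deposited table. Of 45 photosystem, antenna and Rubisco small-subunit genes, which mark green tissue, 0 rose and 5 fell, and the summed level of those 5 was 299 FPKM in flight and 405 FPKM on the ground in the authors' deposited table. None of the 14 dry seed and late embryo markers was called in either direction. Counts among the root cell markers were 0 higher and 3 lower of 7 for endodermis, 0 higher and 1 lower of 7 for xylem, and 0 higher and 1 lower of 7 for root hair. They were 0 higher and 1 lower of 4 for phloem, 0 higher and 1 lower of 4 for pericycle or lateral root, and 0 of 3 root cap and 0 of 1 atrichoblast markers were called. Across all loci 4.11% were lower in flight. The part of tissue composition in the results was not tested.

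The highest increases in flight included genes known for low energy and darkness. SEN1 (AT4G35770, TAIR10 chromosome 4, 16944941 to 16946192), a gene induced by darkness and sugar starvation, had 18.2 FPKM in flight and 1.19 FPKM on the ground in the authors' deposited table. That is 15.3-fold higher in flight, or 3.93 ± 0.88 on the log2 scale (q-value 0.00185, the authors' deposited table). The transcription factor bZIP1 (AT5G49450, chromosome 5, 20051829 to 20052735), which acts in the low-energy response, had 31.6 FPKM in flight and 4.00 FPKM on the ground in the authors' deposited table, a change of 2.98 ± 0.55. BT2 (AT3G48360), a BTB and TAZ domain protein that responds to sugar and nitrogen, had 77.0 FPKM in flight and 15.1 FPKM on the ground in the authors' deposited table, a change of 2.36 ± 0.78. bZIP63, which can pair with bZIP1, rose by 0.74 ± 0.37 in the authors' deposited table. BT1, a relative of BT2 and a member of the nitrate list, rose by 1.26 ± 0.34 in the authors' deposited table.

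Most of the low-energy list was not called. Of 28 members, 4 rose and 1 fell, the EXORDIUM-like gene EXL4 at -0.62 ± 0.28 in the authors' deposited table, and 23 were not listed. The called share was 17.9%, beside 7.21% of all loci. The 23 include the asparagine synthetase gene ASN1, the dark-inducible genes DIN10 and DIN11, the dormancy genes DRM1 and DRM2, and the SnRK1 kinase genes KIN10 and KIN11. ICL, the isocitrate lyase of the glyoxylate cycle, had 12.7 FPKM in flight and 4.29 FPKM on the ground in the authors' deposited table, a change of 1.57 ± 0.42. It was 1 of 2 called genes of the 12 for the glyoxylate cycle and fatty acid breakdown, the other being the thiolase gene PED1 at -0.51 ± 0.23 in the authors' deposited table. Those 2 are 16.7% of their list.

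Other large increases were spread over regulators and stress genes. The nuclear stress-tolerance gene OXS3 had 58.1 FPKM in flight and 8.32 FPKM on the ground in the authors' deposited table, a change of 2.80 ± 0.45. AT1G49570, a class III peroxidase, had 9.65 FPKM in flight and 0.658 FPKM on the ground in the authors' deposited table, a change of 3.87 ± 0.90. The kelch-repeat gene AT1G80440 had 10.8 FPKM in flight and 1.83 FPKM on the ground in the authors' deposited table, a change of 2.56 ± 0.60. Of these genes OXS3 had the highest level in flight. AT5G61590, annotated with an integrase-type DNA-binding domain, reached 113 FPKM in flight against 24.4 FPKM on the ground in the authors' deposited table, a change of 2.21 ± 0.48. The remaining genes of the 12 highest were the RING-type genes AT2G34000 and AT3G18773, the zinc finger gene ATCTH, AT4G32480 and the glutaredoxin-type gene ROXY2, with changes between 1.95 and 2.30 in the authors' deposited table. Just below that group, genes chosen after their values were seen were the methionine gamma-lyase gene MGL at 1.65 ± 0.64, the RING-type gene ATL8 at 1.65 ± 0.49, the nitrilase gene NIT2 at 1.64 ± 0.38 and the ethylene and jasmonate regulator gene ORA59 at 1.63 ± 0.63, all in the authors' deposited table. The glutathione transferase gene GSTU11 and the uncharacterized gene AT4G35725, which was also chosen after its value was seen, are listed at 0 FPKM on the ground and at 1.30 and 2.43 FPKM in flight in the authors' deposited table.

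Light-response genes tied to HY5 fell together. Of 17 members of that list 0 rose and 7 fell, with a median of -1.75 among the 7 in the authors' deposited table. These 7 are 41.2% of the list, beside 4.11% of all loci lower in flight. BBX30 (AT4G15248), a short B-box protein, had 4.75 FPKM in flight and 31.2 FPKM on the ground in the authors' deposited table, a change of -2.72 ± 1.32 (q-value 0.0385). Its relative BBX31 had 3.70 FPKM in flight and 12.5 FPKM on the ground in the authors' deposited table, a change of -1.75 ± 0.72. Early light-induced proteins protect plastids against excess light. ELIP1 (AT3G22840, chromosome 3, 8084447 to 8085593) had 18.2 FPKM in flight and 97.4 FPKM on the ground in the authors' deposited table, a change of -2.42 ± 0.34. ELIP2 had 29.3 FPKM in flight and 130 FPKM on the ground in the authors' deposited table, a change of -2.15 ± 0.31. The plastid sigma factor gene SIGE fell by 1.72 on the log2 scale, with an error of 0.37, and the B-box gene BBX24 by 1.43, with an error of 0.44, in the authors' deposited table. HY5 itself fell least, at 44.5 FPKM in flight and 65.0 FPKM on the ground in the authors' deposited table, a change of -0.55 ± 0.30. The called genes thus span changes of different size, with HY5 at the small end. Of the other members 9, among them COP1, SPA1, RUP1 and RUP2, were not listed, and HYH lies in a locus of several genes.

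Flavonoid genes also fell. These enzymes make flavonols, pigments that absorb ultraviolet light. Of 17 members 0 rose and 7 fell, with a median of -0.83 among the 7 in the authors' deposited table. They make up 41.2% of the list, beside 4.11% of all loci lower in flight. MYB12 (AT2G47460, chromosome 2, 19476330 to 19479541), the root activator of flavonol synthesis, had 25.7 FPKM in flight and 87.3 FPKM on the ground in the authors' deposited table, a change of -1.76 ± 0.28. TT4, the chalcone synthase that opens the pathway, had 628 FPKM in flight and 1065 FPKM on the ground in the authors' deposited table, a change of -0.76 ± 0.22. Further down the pathway, the isomerase gene TT5 changed by -0.91 ± 0.49, the isomerase-like gene CHIL by -0.36 ± 0.25, the hydroxylase gene F3H by -0.64 ± 0.24 and the flavonol synthase gene FLS1 by -0.87 ± 0.40 in the authors' deposited table. The flavonol glucosyltransferase gene UGT78D2 changed by -0.83 ± 0.29 in the authors' deposited table. The regulator thus had the largest decrease of the 7. Genes of the later anthocyanin steps, DFR and LDOX, and the regulators PAP1, TT8, MYB11 and MYB111 were not listed.

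The bases upstream of these genes were read from the RefSeq TAIR10.1 genome, 250 bases ending at the base before each annotated gene start. They were searched on both strands for CACGTG, the core known as the G-box that HY5-type bZIP proteins bind. CACGTG was present in 6.49% of the windows of 27443 protein-coding genes, in 7.66% of the 561 windows of genes that rose and in 7.32% of the 751 of genes that fell. It was present in 4 of the 7 called flavonoid genes and 5 of all 17, and in 2 of the 7 called HY5-linked genes and 2 of all 17. A match is a string of letters and does not show binding. The windows of 5 called genes that hold it are printed because they let the position of the G-box be compared. The G-box, in capitals, begins 66 bases before the gene start in ELIP1, 67 in CHIL, 72 in BBX30, 118 in MYB12 and 233 in TT4. The TAIR10.1 positions are chr3:8085670-8085919, minus strand (ELIP1), chr5:1563036-1563285, plus strand (CHIL), chr4:8708591-8708840, plus strand (BBX30), chr2:19476076-19476325, plus strand (MYB12) and chr5:4488226-4488475, plus strand (TT4), each written 5′ to 3′ in the direction of its gene.
ELIP1: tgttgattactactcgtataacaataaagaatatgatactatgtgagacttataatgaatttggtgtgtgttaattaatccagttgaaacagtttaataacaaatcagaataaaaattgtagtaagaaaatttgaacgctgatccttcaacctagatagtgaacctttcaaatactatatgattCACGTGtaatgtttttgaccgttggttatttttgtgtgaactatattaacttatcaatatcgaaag
CHIL: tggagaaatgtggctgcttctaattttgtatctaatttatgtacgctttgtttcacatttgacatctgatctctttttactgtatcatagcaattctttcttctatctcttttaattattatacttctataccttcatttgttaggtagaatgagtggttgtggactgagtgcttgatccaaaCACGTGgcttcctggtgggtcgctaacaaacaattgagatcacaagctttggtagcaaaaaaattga
BBX30: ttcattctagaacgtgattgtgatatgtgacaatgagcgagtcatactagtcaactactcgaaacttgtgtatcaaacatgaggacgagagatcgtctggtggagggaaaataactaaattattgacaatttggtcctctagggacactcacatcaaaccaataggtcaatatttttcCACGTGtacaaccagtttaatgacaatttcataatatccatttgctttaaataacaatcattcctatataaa
MYB12: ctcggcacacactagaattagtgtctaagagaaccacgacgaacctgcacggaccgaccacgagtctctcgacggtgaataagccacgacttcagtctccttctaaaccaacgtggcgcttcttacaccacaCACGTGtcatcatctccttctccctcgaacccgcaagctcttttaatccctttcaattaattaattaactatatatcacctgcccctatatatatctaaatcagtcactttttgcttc
TT4: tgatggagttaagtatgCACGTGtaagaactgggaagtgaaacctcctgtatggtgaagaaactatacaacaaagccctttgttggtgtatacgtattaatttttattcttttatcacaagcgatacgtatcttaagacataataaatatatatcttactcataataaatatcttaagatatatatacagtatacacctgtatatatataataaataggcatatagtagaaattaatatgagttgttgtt

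Genes of the green plastid were called lower, not higher. In the photosystem, antenna and Rubisco list the 5 called genes changed by -0.78 to -0.35 in the authors' deposited table, from the antenna gene LHCB2.1 to the Rubisco gene RBCS1A, with PSBY, PSAF and PSAD-1 between them. Those 5 are 11.1% of the list, beside 4.11% of all loci lower in flight. At a q-value of 0.01 or less, or at a log2 change of 1 or more in size, 0 of these 5 were left. The part of green tissue in these decreases and those of the HY5-linked genes was not tested. Rubisco small-subunit genes are close copies that can share reads. Of 24 carotenoid and chlorophyll synthesis genes 0 rose and 4 fell, 16.7% of that list. Among them PSY, phytoene synthase and the entry enzyme of carotenoid synthesis, had 7.42 FPKM in flight and 20.9 FPKM on the ground in the authors' deposited table, a change of -1.49 ± 0.36. BETA-OHASE1 changed by -1.61 ± 0.47, the chlorophyll regulator gene GUN4 by -1.42 ± 0.75 and CHLG by -0.58 ± 0.33 in the authors' deposited table. Each of these genes stood at or below 20.9 FPKM in both groups.

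Called Casparian strip genes were all lower in flight, at 46.7% of the list beside 4.11% of all loci. Of 15 members 0 rose and 7 fell, with values from -2.31 to -1.23 around a median of -1.83 in the authors' deposited table, so that each of the 7 was lower in flight by more than 1 log2 unit. AT2G39430 (chromosome 2, 16463347 to 16466941), a dirigent-like protein of the kind that guides lignin coupling, had 18.9 FPKM in flight and 93.6 FPKM on the ground in the authors' deposited table, a change of -2.31 ± 0.38. PRX72 (AT5G66390, chromosome 5, 26515902 to 26517391), a peroxidase that acts in lignin formation, had 35.5 FPKM in flight and 158 FPKM on the ground in the authors' deposited table, a change of -2.16 ± 0.27. The dirigent-like genes AT3G55230 and AT4G13580 had 54.9 and 39.1 FPKM in flight, against 232 and 139 FPKM on the ground in the authors' deposited table. ESB1, the dirigent protein that shapes the strip, had 17.3 FPKM in flight and 42.8 FPKM on the ground in the authors' deposited table, a change of -1.30 ± 0.33. The membrane scaffold gene CASP5 changed by -1.23 ± 0.42 in the authors' deposited table. Among the 8 members not listed were the master regulator MYB36, the peroxidase gene PER64, the oxidase gene RBOHF and the receptor gene GSO1. The scaffold genes CASP1, CASP2 and CASP4 were not listed either. The 3 endodermis markers that fell are members of this list, and the part of endodermal cell number was not tested.

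Suberin genes fell as well, 8 of 20 with 0 rising. That is 40% of the list, beside 4.11% of all loci lower in flight. The hydroxylases CYP86A1 and CYP86B1 make the fatty acid units of suberin, and they had 10.5 and 3.38 FPKM in flight, against 27.8 and 9.92 FPKM on the ground in the authors' deposited table. Their changes were -1.41 ± 0.52 and -1.55 ± 0.47 in the authors' deposited table. ASFT, which adds ferulate, had 31.1 FPKM in flight and 80.7 FPKM on the ground in the authors' deposited table, a change of -1.37 ± 0.48. The acyltransferase gene GPAT5 changed by -1.07 ± 0.51 and the alcohol-forming reductase genes FAR4 and FAR5 by -1.03 ± 0.60 and -0.88 ± 0.40 in the authors' deposited table. The regulators MYB39 and MYB9 changed by -1.48 ± 0.70 and -0.96 ± 0.53 in the authors' deposited table. The called suberin genes had 1.56 to 31.1 FPKM in flight and 4.35 to 80.7 FPKM on the ground in the authors' deposited table. The transporter genes ABCG2, ABCG6 and ABCG20 and the regulators MYB41, MYB53, MYB93 and MYB107 were not listed, and MYB92 lies in a locus of several genes. Outside the list, the fatty acid elongase gene KCS1, chosen after its value was seen, changed by -1.49 ± 0.82 in the authors' deposited table.

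**Figure D2:**
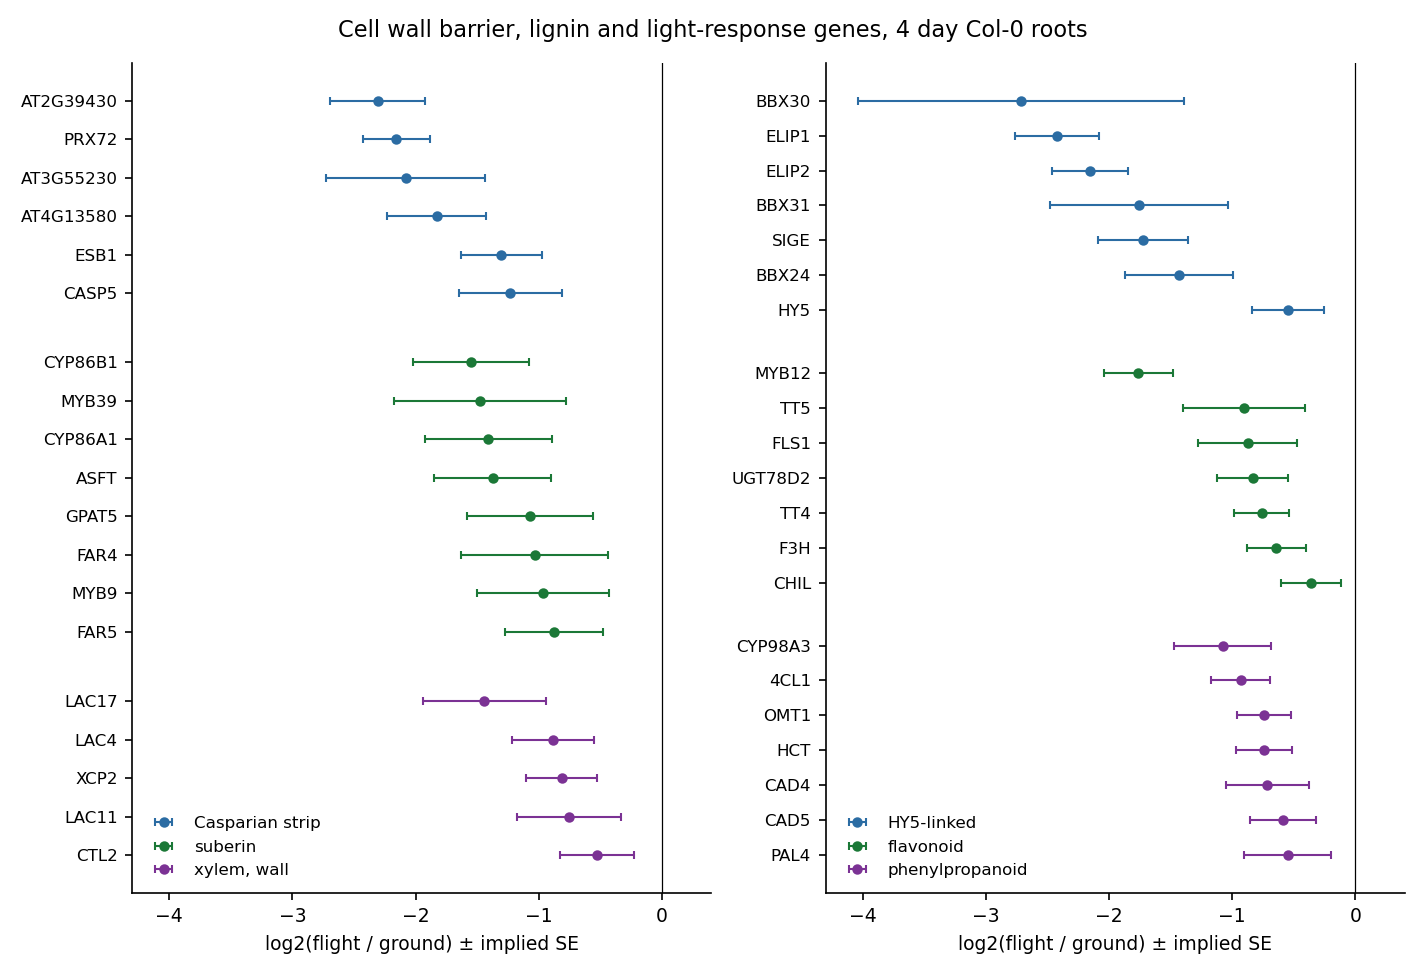
Log2 of flight over ground (x axis) with the implied standard error (bars) is shown for called members of 6 gene lists, from the authors' deposited table. The left panel holds Casparian strip, suberin and xylem or secondary wall genes and the right panel HY5-linked, flavonoid and phenylpropanoid genes: every point lies left of 0, from BBX30 at -2.72 to CHIL at -0.36.

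Genes for the synthesis of lignin units were also called. Of 17 phenylpropanoid and monolignol genes 0 rose and 7 fell, with changes from -1.08 to -0.55 in the authors' deposited table. These are 41.2% of the list, beside 4.11% of all loci lower in flight. CYP98A3, the hydroxylase at the branch to lignin, had 52.5 FPKM in flight and 111 FPKM on the ground in the authors' deposited table, a change of -1.08 ± 0.39. Among the others, 4CL1, which activates the acids, changed by -0.93 ± 0.24, the transferase gene HCT by -0.74 ± 0.23 and the methyltransferase gene OMT1 by -0.74 ± 0.22 in the authors' deposited table. The alcohol dehydrogenase genes CAD4 and CAD5 changed by -0.72 ± 0.34 and -0.59 ± 0.27, and PAL4 by -0.55 ± 0.35, in the authors' deposited table. The main entry genes PAL1, PAL2 and C4H were not listed. Glucosylation of monolignols is carried out by the UGT72E enzymes, and UGT72E3, UGT72E2 and UGT72E1 changed by -1.27 ± 0.43, -1.0 ± 0.62 and -0.86 ± 0.48 in the authors' deposited table.

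Laccases and peroxidases join lignin units in the wall. Of 17 laccase genes 0 rose and 5 fell, led by LAC16 at -1.50 ± 0.61 and LAC17 at -1.44 ± 0.50 in the authors' deposited table. LAC4, LAC11 and LAC7 changed by -0.89 ± 0.33, -0.76 ± 0.42 and -0.59 ± 0.28 in the authors' deposited table. LAC4, LAC11 and LAC17 also belong to the 18 xylem and secondary wall genes, of which 0 rose and 5 fell. The others were XCP2, a protease of dying xylem cells, at -0.81 ± 0.29 and the chitinase-like gene CTL2 at -0.53 ± 0.30 in the authors' deposited table. The secondary wall cellulose synthase genes CESA4, CESA7 and CESA8 and the xylem regulators VND7, MYB46 and MYB83 were not listed. In the wider list of 35 cellulose synthases and like genes 1 fell, the primary wall gene CESA1 at -0.83 ± 0.41 in the authors' deposited table. Called shares were 29.4% for laccases, 27.8% for xylem genes and 2.86% for cellulose synthases, beside 4.11% of all loci lower in flight.

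Class III peroxidases are secreted enzymes of a family of 76 here, and 2 rose while 17 fell. AT3G32980 had 519 FPKM in flight and 1371 FPKM on the ground in the authors' deposited table, a change of -1.40 ± 0.23, and was among the most abundant genes that fell. AT2G38380 had 301 FPKM in flight and 631 FPKM on the ground in the authors' deposited table, and its neighbour AT2G38390 had 72.4 FPKM in flight and 169 FPKM on the ground in the authors' deposited table. These are close copies, so reads may have been divided between them. The 2 that rose were AT1G49570, given above, and AT5G19890 at 11.0 FPKM in flight and 3.91 FPKM on the ground in the authors' deposited table. Of 26 dirigent-like proteins 0 rose and 9 fell, among them AT5G42500 at -1.14 ± 0.29 and AT4G11190 at -0.92 ± 0.27, besides those of the Casparian strip, in the authors' deposited table. Called shares were 25% for peroxidases and 34.6% for dirigent-like proteins, beside 7.21% of all loci.

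Called genes of water channels and wall-loosening enzymes were lower more often than higher. Across all loci 4.11% were lower and 3.1% higher. Of 37 aquaporin genes 1 rose and 7 fell, a called share of 21.6% beside 7.21% of all loci. The plasma membrane channel gene PIP2A had 475 FPKM in flight and 1060.0 FPKM on the ground in the authors' deposited table, a change of -1.16 ± 0.22. The vacuolar channel gene TIP2;3 had 60.8 FPKM in flight and 192 FPKM on the ground in the authors' deposited table, a change of -1.66 ± 0.26. TIP2 and PIP2B changed by -0.90 ± 0.22 and -0.76 ± 0.22, RD28 by -0.85 ± 0.43, PIP1A by -0.73 ± 0.22 and PIP1B by -0.50 ± 0.23 in the authors' deposited table. The channel gene NLM1 rose by 0.66 ± 0.30 in the authors' deposited table. PIP genes are alike in sequence, and PIP2B and RD28 lie side by side, so their reads may be shared.

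Of 33 xyloglucan endotransglucosylase genes, whose enzymes cut and rejoin wall sugars, 1 rose and 7 fell. XTH26 rose by 0.97 ± 0.40, and the decreases ran from XTH32 at -0.84 ± 0.31 to XTH20 at -0.43 ± 0.26 in the authors' deposited table. Among 35 expansins 1 rose and 4 fell, EXPA14 at 0.47 ± 0.30 against EXPB3 at -0.67 ± 0.24 and 3 smaller decreases in the authors' deposited table. Of 26 extensins and extensin-like proteins, structural proteins of the wall, 0 rose and 4 fell, with EXT4 at 533 FPKM in flight and 948 FPKM on the ground in the authors' deposited table. Of 49 fasciclin-like and other arabinogalactan proteins 1 rose and 5 fell, FLA6 at 0.71 ± 0.41 and FLA13 at -1.16 ± 0.27 in the authors' deposited table. The called shares were 24.2% for xyloglucan genes, 14.3% for expansins, 15.4% for extensins and 12.2% for arabinogalactan proteins, beside 7.21% of all loci. Among 233 pectin lyases, pectinesterases and their inhibitors 2 rose and 7 fell, a called share of 3.86%, beside 7.21% of all loci. Of 101 GDSL lipases 1 fell, AT1G74460 at 33.7 FPKM in flight and 90.5 FPKM on the ground in the authors' deposited table. That is 0.99% of the list, beside 4.11% of all loci lower in flight. How many members of the pectin and lipase lists were tested is unknown, so these low shares may include untested genes. None of 24 tubulin and actin genes was called at a locus of its own, and TUA3 lies in a locus of several genes.

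Ribosomal protein genes rose together. Of 342 members 77 rose and 0 fell, and 8 more lie in loci of several genes. That is 22.5% of the list, beside 3.1% of all loci higher in flight. The 77 had 28.5 to 2229.8 FPKM on the ground in the authors' deposited table. Their errors ran from 0.22 to 0.42, beside a median error of 0.33 among called loci. The part of level and error in this share was not tested. The changes were small and alike, from 0.32 to 0.64 with a median of 0.41 in the authors' deposited table, and they lay near the lower end of what was called in the table, where the smallest called increase was 0.32. RPL23AA (AT2G39460), a protein of the large subunit, had 2861 FPKM in flight and 2229.8 FPKM on the ground in the authors' deposited table, a change of 0.36 ± 0.23 (q-value 0.0260). AT1G77940, of the L30e family, had 2800.3 FPKM in flight and 2208 FPKM on the ground in the authors' deposited table. RPS28 of the small subunit had 1753 FPKM in flight and 1327 FPKM on the ground in the authors' deposited table, a change of 0.40 ± 0.22. At the upper end of the range AT3G06320, of the L33 family, had 363 FPKM in flight and 232 FPKM on the ground in the authors' deposited table, a change of 0.64 ± 0.26. The list includes proteins of plastid and mitochondrial ribosomes, such as the plastid protein RPL3P at 0.53 ± 0.27 in the authors' deposited table. Many of these genes have near-identical copies between which the authors' counting could divide reads, so single values are uncertain.

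Transcript length moved with direction. Of the 123 called genes under 800 nt 101 rose and 22 fell, so that 82.1% were higher in flight. From 800 to under 2500 nt 417 rose and 626 fell, and at 2500 nt or more 50 rose and 106 fell, with 32.1% higher. The median transcript length was 1189 nt among genes that rose and 1695 nt among genes that fell. Called ribosomal genes had a median length of 940 nt, and 22 of the 77 were under 800 nt. With genes from 800 to under 2500 nt alone, 55 ribosomal genes rose and 0 fell. The part of transcript length in the result was not tested.

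**Figure D3:**
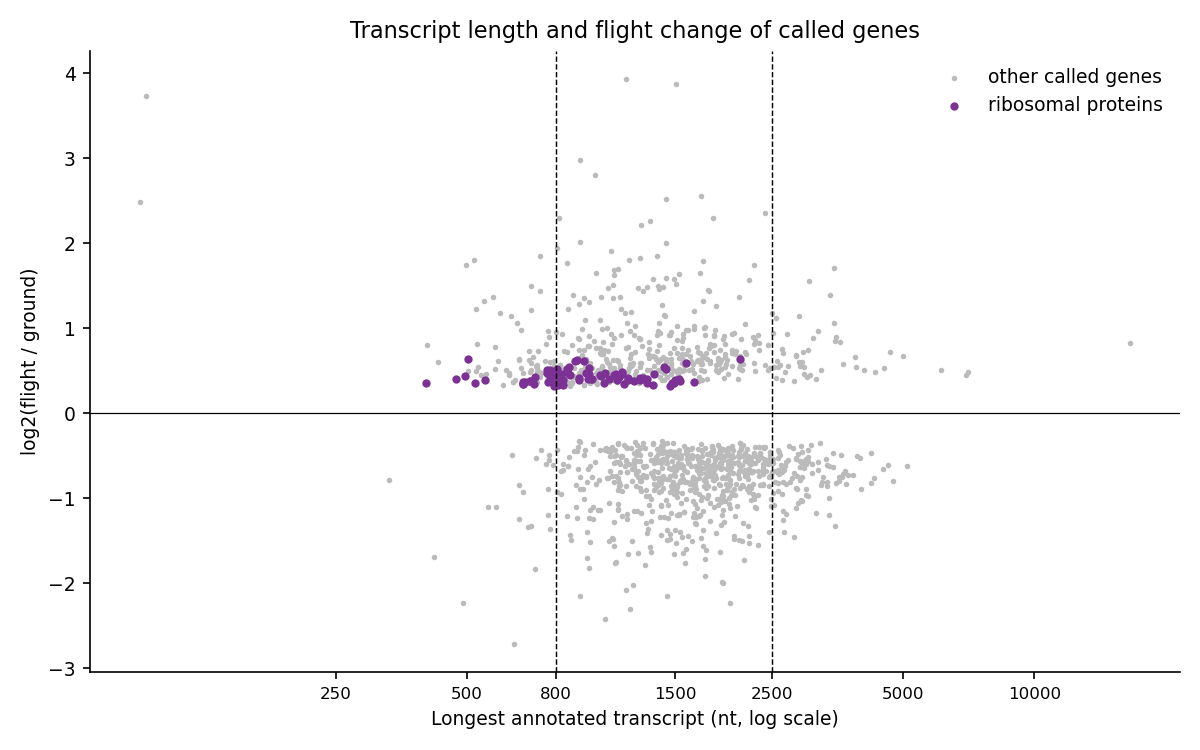
The longest annotated transcript (x axis, nt, log scale) is set against log2 of flight over ground (y axis) for the called genes of the authors' deposited table, with ribosomal protein genes in colour and dashed lines at 800 and 2500 nt. Of the 123 genes left of the first line 82.1% lie above 0, and the ribosomal genes form a band between 0.32 and 0.64.

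Upstream windows of ribosomal genes were searched for TGGGCC, an element known from the promoters of plant ribosomal genes. It was present in 13.7% of the 27443 windows, in 20.5% of those of genes that rose and in 7.32% of those of genes that fell. Of the 77 called ribosomal genes 38 held it (49.4%), and of 310 windows of all members 145 did (46.8%), so the called members held it about as often as the whole list. A pair of windows is printed to show repeated matches near the gene start. AT2G25210, of the L39 family (chr2:10739605-10739854, plus strand), holds 2 matches, which begin 77 and 66 bases before the start. AT3G16080, a zinc-binding ribosomal protein (chr3:5454512-5454761, plus strand), holds 3, which begin 114, 91 and 14 bases before it. Matches are in capitals, and GGCCCA is the same element on the other strand. Levels of AT2G25210 were 2075 FPKM in flight and 1617 FPKM on the ground, and of AT3G16080 1487 FPKM in flight and 1098 FPKM on the ground, in the authors' deposited table.
AT2G25210: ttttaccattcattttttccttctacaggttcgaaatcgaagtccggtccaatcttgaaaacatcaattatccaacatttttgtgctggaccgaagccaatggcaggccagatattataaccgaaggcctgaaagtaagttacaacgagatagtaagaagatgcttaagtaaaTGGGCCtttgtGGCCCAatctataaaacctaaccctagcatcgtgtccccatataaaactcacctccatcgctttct
AT3G16080: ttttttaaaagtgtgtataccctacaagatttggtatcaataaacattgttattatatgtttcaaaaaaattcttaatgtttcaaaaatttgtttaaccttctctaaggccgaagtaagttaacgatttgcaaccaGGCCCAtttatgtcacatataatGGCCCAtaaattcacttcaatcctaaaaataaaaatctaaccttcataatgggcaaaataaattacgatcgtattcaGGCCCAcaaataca

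The other elements were found at these shares of windows among genes that rose, genes that fell and all genes. ACGTG, which lies inside CACGTG, was in 24.2%, 28.9% and 22.9%, and TTGACC and TTGACT, cores of the W-box of WRKY proteins, in 8.91%, 12.8% and 12.2% and in 17.5%, 19.8% and 19.1%. The evening element AAAATATCT was in 3.21%, 2.26% and 2.36%, GATAAG in 15.0%, 12% and 12.3%, and CCGAC in 12.7%, 11.2% and 12%. Among the 7 called Casparian strip genes 5 held TTGACT, and 7 of all 15 did.

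Nucleolar and histone genes were called higher only. Of 56 nucleolar and ribosome-assembly proteins 7 rose and 0 fell, among them NOP10, part of the complex that modifies ribosomal RNA, at 754 FPKM in flight and 526 FPKM on the ground in the authors' deposited table, a change of 0.52 ± 0.23. AT1G19990, annotated as nucleolin, had 47.4 FPKM in flight and 25.0 FPKM on the ground in the authors' deposited table, a change of 0.93 ± 0.37. Of 52 genes in the histone list 7 rose and 0 fell, 6 of them histones, including HTA7 at 0.51 ± 0.25, HTB2 at 0.54 ± 0.31 and HTA13 at 0.98 ± 0.61 in the authors' deposited table. The other was AT1G77660, annotated as a histone methyltransferase, at 0.87 ± 0.56 in the authors' deposited table. With transcripts of 800 to under 2500 nt alone, 5 nucleolar and 3 histone-list genes were left. At a q-value of 0.01 or less, 5 nucleolar and 2 histone-list genes were left. Among 126 translation initiation and elongation factors 3 rose, eEF-1Bb1 at 0.35 ± 0.22, AT3G18760 at 0.41 ± 0.25 and AT5G46030, annotated as a transcription elongation factor, at 0.34 ± 0.24 in the authors' deposited table. In the respiratory chain and ATP synthase list 2 of 78 rose, COX19-1 and COX19-2 at 0.64 ± 0.38 and 0.67 ± 0.35 in the authors' deposited table. Both are assembly factors and not subunits of the chain. Of 53 genes in the cyclin and cyclin-dependent kinase list 1 rose, the kinase regulatory subunit gene CKS2 at 0.44 ± 0.27 in the authors' deposited table. Among 20 chromatin genes 1 rose, the demethylase gene DME at 0.45 ± 0.29 in the authors' deposited table. Shares higher in flight were 12.5% for nucleolar genes and 13.5% for the histone list, beside 3.1% of all loci. They were 2.38% for translation factors, 2.56% for the respiratory list, 1.89% for the cyclin list and 5% for chromatin genes. None of 39 proteasome subunit genes was called, and of 261 pentatricopeptide repeat genes 0 were called at a locus of their own and 2 lie in loci of several genes.

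**Figure D4:**
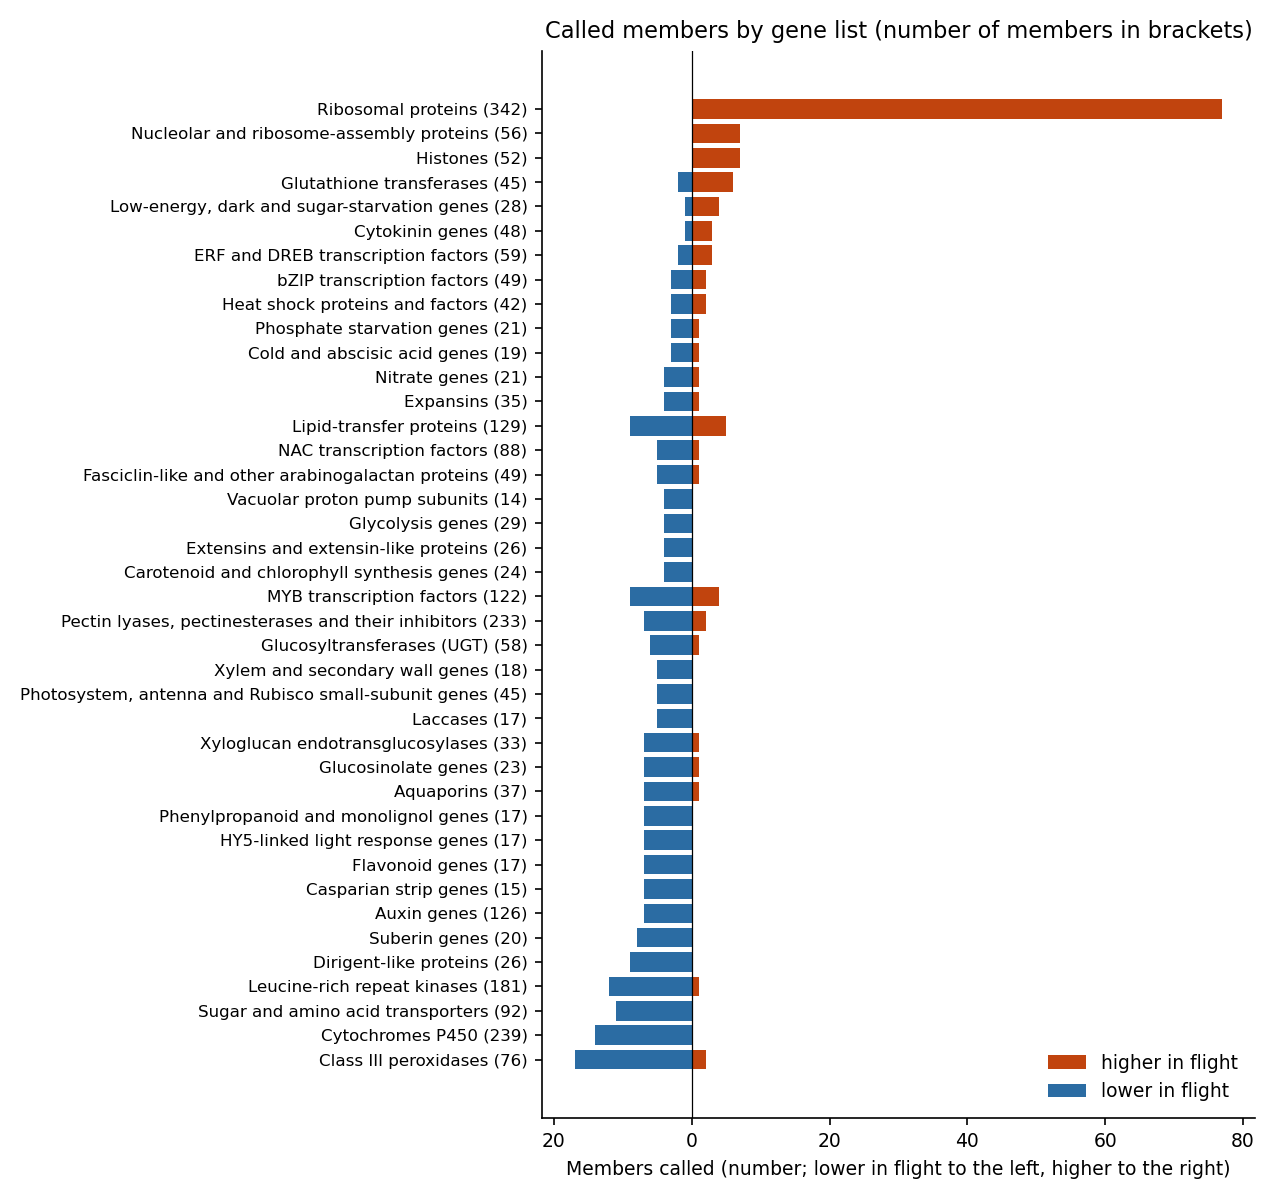
Bars give the number of members called higher (right of 0) or lower (left of 0) in flight for each gene list with 4 or more called members, with the number of members in brackets, from the authors' deposited table. Ribosomal proteins have 77 higher and 0 lower, and class III peroxidases 2 higher and 17 lower.

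Called genes of transport and uptake were lower more often than higher, and most members were not listed. Of 92 sugar and amino acid transporters 0 rose and 11 fell, led by UMAMIT21 at -1.45 ± 0.76, with the sucrose carrier SUC1 at 45.4 FPKM in flight and 77.9 FPKM on the ground and the vacuolar fructose carrier SWEET17 at 72.5 FPKM in flight and 121 FPKM on the ground in the authors' deposited table. Of 14 vacuolar proton pump subunit genes 0 rose and 4 fell, VHA-A, VHA-A3, AT3G42050 and DET3, with changes from -0.72 to -0.41 in the authors' deposited table. Of 21 nitrate genes 1 rose and 4 fell: besides BT1, nitrate reductase NIA1 had 12.04 FPKM in flight and 27.3 FPKM on the ground in the authors' deposited table, a change of -1.18 ± 0.28. NRT3.1, LBD38 and GLN1;1 changed by -0.58 ± 0.38, -0.48 ± 0.24 and -0.47 ± 0.32 in the authors' deposited table. Of 21 phosphate starvation genes 1 rose, the ribonuclease gene RNS1 at 1.36 ± 0.56, and 3 fell, the transporters PHT1;4 and PHT1;1 and the phosphatase gene PAP10, from -0.67 to -0.41, in the authors' deposited table. Among 26 iron and metal genes 0 rose and 3 fell, the phloem transporter OPT3 at -1.19 ± 0.64, the coumarin enzyme F6'H1 at -0.86 ± 0.44 and FIT at -0.58 ± 0.31 in the authors' deposited table. Of 55 MATE efflux proteins 1 fell, AT1G71870 at -0.96 ± 0.35 in the authors' deposited table. Shares called in either direction were 11.96% for sugar and amino acid transporters, 28.57% for proton pump genes and 23.81% for nitrate genes. They were 19.05% for phosphate starvation genes, 11.54% for iron and metal genes and 1.82% for MATE proteins. Across all loci 7.21% were called, with 4.11% lower and 3.1% higher, and whether the shares of these lists differ was not tested.

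Called genes of sugar breakdown had small decreases. Of 29 glycolysis genes 0 rose and 4 fell, a share of 13.8% beside 4.11% of all loci lower in flight. GAPC2, the cytosolic dehydrogenase of the pathway, had 1034 FPKM in flight and 1445 FPKM on the ground in the authors' deposited table, a change of -0.48 ± 0.23. The enolase gene LOS2 changed by -0.50 ± 0.26, the aldolase gene FBA8 by -0.43 ± 0.23 and PGM2 by -0.51 ± 0.34 in the authors' deposited table. Of 16 low-oxygen genes 0 rose and 2 fell, the decarboxylase gene PDC1 at 1.62 FPKM in flight and 4.69 FPKM on the ground and the desaturase gene SAD6 at 2.27 FPKM in flight and 7.17 FPKM on the ground in the authors' deposited table. ADH1, SUS1, SUS4, LBD41 and the regulators HRE1 and HRE2 were not listed. The 2 called low-oxygen genes are 12.5% of their list.

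Called genes of specialised metabolism were lower more often than higher, and most members were not listed. Called shares were 34.8% for glucosinolate genes, 33.3% for triterpene genes and 12.1% for glucosyltransferases, beside 7.21% of all loci. Across those loci 4.11% were lower and 3.1% higher. Of 23 glucosinolate genes, which make sulfur-rich defence compounds, 1 rose and 7 fell. The sulfotransferase genes SOT18 and SOT17 had 99.8 and 30.1 FPKM in flight, against 190 and 54.9 FPKM on the ground in the authors' deposited table. CYP79B2, at the entry to the indole branch, changed by -0.85 ± 0.27, and BCAT4, at the entry to the methionine branch, by -0.64 ± 0.23 in the authors' deposited table. The regulator MYB51 rose, at 4.99 FPKM in flight and 1.83 FPKM on the ground in the authors' deposited table. Of 9 root triterpene cluster genes 0 rose and 3 fell, MRN1 at -1.39 ± 0.48, CYP71A16 at -0.78 ± 0.38 and PEN1 at -0.67 ± 0.33 in the authors' deposited table. Of 239 cytochromes P450 0 rose and 14 fell, a share of 5.86% beside 4.11% of all loci lower in flight and 7.21% called. Of 58 glucosyltransferases 1 rose and 6 fell. UGT84A2, which glucosylates sinapate, had 16.6 FPKM in flight and 66.2 FPKM on the ground in the authors' deposited table, a change of -2.0 ± 0.69, and UGT74E2, whose enzyme acts on an auxin, rose by 1.01 ± 0.47 in the authors' deposited table.

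Glutathione transferases, which join toxic compounds to glutathione, had 6 of 45 higher and 2 lower. That is a called share of 17.8%, beside 7.21% of all loci. GSTU25 had 68.9 FPKM in flight and 26.8 FPKM on the ground in the authors' deposited table, a change of 1.36 ± 0.33, and GSTU4 had 12.4 FPKM in flight and 3.57 FPKM on the ground in the authors' deposited table, a change of 1.8 ± 0.62. ATGSTF13, GSTF2 and GSTF14 rose by 0.99 ± 0.33, 0.56 ± 0.24 and 0.55 ± 0.34, while GSTU5 and GSTU20 changed by -0.72 ± 0.35 and -0.37 ± 0.23 in the authors' deposited table. Lipid-transfer proteins went both ways, with 5 of 129 higher and 9 lower, a called share of 10.9%. AT4G12545 had 480.1 FPKM in flight and 1139 FPKM on the ground, AT3G22600 had 304 FPKM in flight and 709 FPKM on the ground, and LTP3 had 405 FPKM in flight and 208 FPKM on the ground in the authors' deposited table.

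Hormone genes were called in small numbers. Of 126 auxin genes 0 rose and 7 fell, a share of 5.56% beside 4.11% of all loci lower in flight and 7.21% called. They were LBD29, which acts in lateral root formation, at -1.24 ± 0.47, ARF4 at -0.81 ± 0.41, the efflux carrier gene ABCB1 at -0.80 ± 0.48, the influx carrier gene LAX3 at -0.68 ± 0.35, the synthesis gene YUC6 at -0.68 ± 0.36, IAA28 at -0.59 ± 0.24 and ARF9 at -0.54 ± 0.35 in the authors' deposited table. Among 48 cytokinin genes 3 rose and 1 fell: the response regulators ARR15 and ARR3 at 1.51 ± 0.80 and 0.84 ± 0.38 and the phosphotransfer gene AHP1 at 0.55 ± 0.23, against RR10 at -0.56 ± 0.28, in the authors' deposited table. Of 18 ethylene genes EBF2 rose by 0.60 ± 0.40, and of 19 gibberellin and brassinosteroid genes GASA4 rose by 0.34 ± 0.22 and GASA1 changed by -0.60 ± 0.22 in the authors' deposited table. Called shares were 8.33% for cytokinin, 5.56% for ethylene and 10.5% for gibberellin and brassinosteroid genes, beside 7.21% of all loci. None of 33 jasmonate genes and none of 16 defence and salicylate genes was called. ORA59 is in none of the hormone lists and GASA5 is not in the gibberellin list, so these counts do not include them.

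Called shares of the stress and mechanical lists were 5% for touch, 11.9% for heat shock and 21.1% for cold and abscisic acid. Across all loci 7.21% were called, and whether the shares of these lists differ was not tested. Among 20 touch and calmodulin-like genes TCH3 rose, with 24.2 FPKM in flight and 13.3 FPKM on the ground in the authors' deposited table, and the other 19, including TCH2 and TCH4, were not listed. Of 42 heat shock proteins and factors 2 rose and 3 fell: HSP60 at 0.81 ± 0.51 and HSFB4 at 0.58 ± 0.38, against HSFC1 at -1.47 ± 0.70, HSFA6B at -1.16 ± 0.63 and HSFB2A at -0.76 ± 0.41, in the authors' deposited table. Of 19 cold and abscisic acid genes RD22 rose by 0.65 ± 0.37, and KIN1, PP2CA and COR47 changed by -0.67 ± 0.32, -0.63 ± 0.38 and -0.55 ± 0.31 in the authors' deposited table. The clock genes LUX and LHY, 2 of 20, changed by -0.85 ± 0.39 and -0.75 ± 0.37 in the authors' deposited table. Among 22 genes of root hair development WER, which specifies hairless cells, rose by 0.92 ± 0.60 and the kinase gene MRH1 changed by -0.96 ± 0.34 in the authors' deposited table. Called shares were 10% for clock genes and 9.09% for root hair genes.

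Most transcription factor families held called genes in both directions, and the bHLH list held decreases only. MYB factors had 4 of 122 higher and 9 lower, NAC factors 1 of 88 higher and 5 lower, ERF and DREB factors 3 of 59 higher and 2 lower, and WRKY factors 2 of 67 higher and 1 lower. The list of ERF and DREB factors does not hold AT5G61590, ORA59 or tny, given elsewhere, so its count misses called genes of that kind. Listed bHLH factors had 0 of 25 higher and 2 lower, and bZIP factors 2 of 49 higher and 3 lower. Called shares were 10.7% for MYB, 6.82% for NAC, 8.47% for ERF and DREB and 4.48% for WRKY factors. They were 8% for bHLH and 10.2% for bZIP factors, all beside 7.21% of all loci. WRKY18 and WRKY70 rose by 1.32 ± 0.47 and 0.96 ± 0.45, and MYB15 had 2.61 FPKM in flight and 0.454 FPKM on the ground in the authors' deposited table. MYB74 had 13.0 FPKM in flight and 38.7 FPKM on the ground, and ABF3, a mediator of abscisic acid responses, changed by -0.84 ± 0.35 in the authors' deposited table. Of 181 leucine-rich repeat kinases 1 rose and 12 fell, among them BAM1 at -0.75 ± 0.28 and PXY, the receptor of the vascular stem cells, at -0.73 ± 0.41 in the authors' deposited table. Their called share in either direction was 7.18%, near that of all loci, of which 4.11% were lower.

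The most abundant genes that fell included the annexin gene ANNAT1 at 1513 FPKM in flight and 1972 FPKM on the ground, the germin-like gene GLP5 at 742 FPKM in flight and 1096 FPKM on the ground, AIR1 at 437 FPKM in flight and 1108 FPKM on the ground and the polyubiquitin gene UBQ3 at 914 FPKM in flight and 1236 FPKM on the ground in the authors' deposited table. Among the 12 lowest changes were also ANNAT7 at -1.79 ± 0.39 and the uncharacterized genes AT4G18422 and AT3G04854 at -2.23 ± 0.85 and -1.83 ± 0.90 in the authors' deposited table. Genes chosen after their values were seen were the uclacyanin gene UCC1 at -1.48 ± 0.28, the microtubule-associated gene SP1L5 at -1.47 ± 0.60, the trehalose phosphatase gene TPPI at -1.50 ± 0.48 and GASA5 at -1.44 ± 0.27 in the authors' deposited table.

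The flight comparison was set beside those of 4 day WS roots, of another accession, and of 8 day Col-0 and 8 day WS roots. These share no library with it. In 4 day WS roots 128 of 17899 loci were called (0.715%), in 8 day Col-0 roots 812 of 20035 (4.05%) and in 8 day WS roots 888 of 17365 (5.11%, with 2.36% higher and 2.75% lower). In 4 day WS 0.352% were higher and 0.363% lower, and in 8 day Col-0 1.26% were higher and 2.8% lower. With 4 day WS, 33 genes were called in both, 2.49% of the 1324 genes of 4 day Col-0 and 28.7% of the 115 of 4 day WS, and 30 had the same direction. With 8 day Col-0, 309 were called in both, 23.3% of the 1324 and 40.1% of 771, and 293 had the same direction, 81 higher and 212 lower. With 8 day WS, 168 were called in both, 12.7% of the 1324 and 20.9% of 805, and 145 had the same direction. The plot of genes called in both tables shows most points in the quadrants of equal sign.

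Genes called in 4 day Col-0, 4 day WS and 8 day Col-0 numbered 13. Of these RNS1, the acyltransferase-family gene AT2G39980, PIP2B, RD28, AT2G39430, AT3G01190, AT3G22600, SWEET17, AT5G15180 and the regulator tny had the same direction in the 3 tables. AT2G39980 changed by 1.18 ± 0.72 in 4 day Col-0, 1.56 ± 0.70 in 4 day WS, 1.71 ± 0.77 in 8 day Col-0 and 1.21 ± 0.71 in 8 day WS, at 6.89 FPKM or less in every group listed in the authors' deposited tables. AT2G39430 changed by -2.31 ± 0.38, -1.02 ± 0.49, -0.41 ± 0.23 and -1.09 ± 0.31 in the same order in the authors' deposited tables. RBCS1A, AT4G29905 and AT5G01870 had opposite directions among the 3 tables. RBCS1A changed by -0.35 ± 0.25 in 4 day Col-0 and 0.98 ± 0.34 in 4 day WS in the authors' deposited tables.

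**Figure D5:**
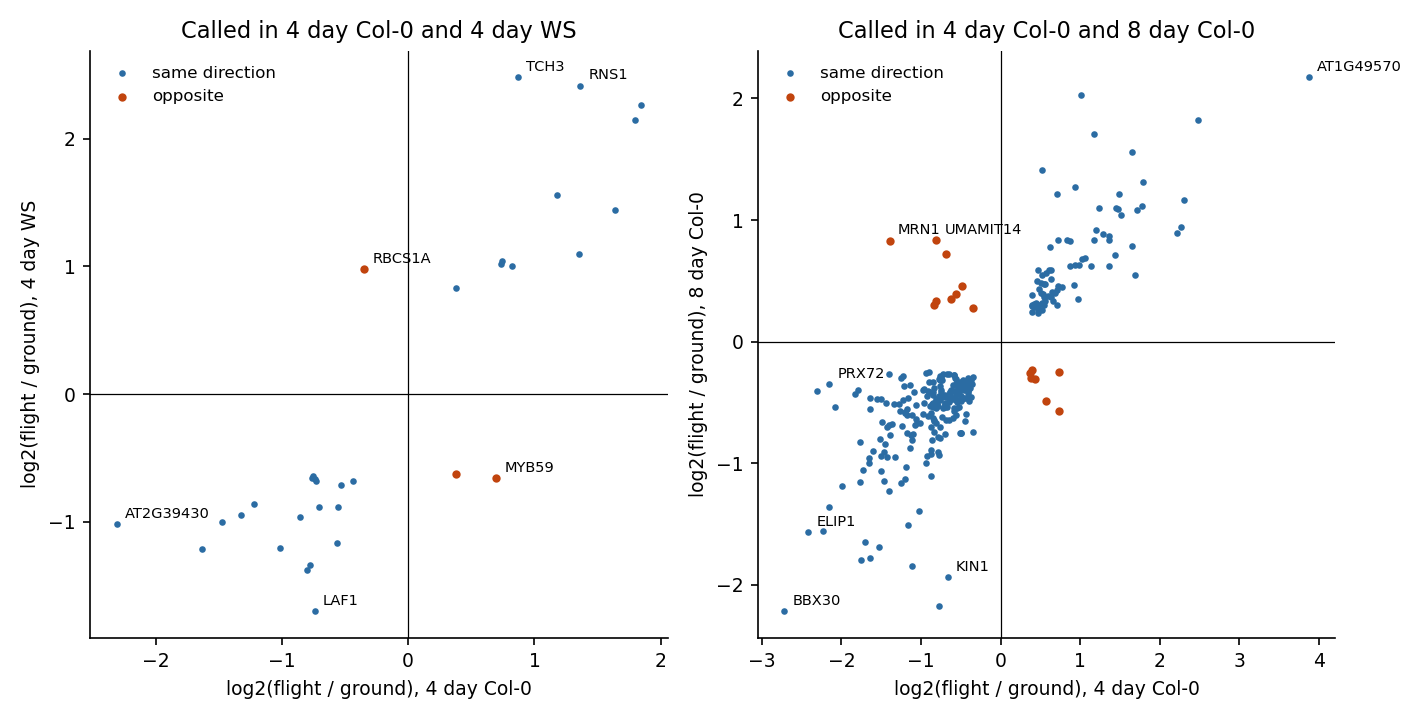
Each point is a gene called in the 4 day Col-0 flight table (x axis, log2 of flight over ground) and in the 4 day WS (left) or 8 day Col-0 (right) flight table (y axis, same scale), from the authors' deposited tables. Of 33 genes on the left 30 and of 309 on the right 293 have the same sign in both.

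List counts differed between the flight tables in some groups and not in others. Ribosomal proteins had 0 called in 4 day WS, 6 higher and 5 lower in 8 day Col-0, and 4 higher and 4 lower in 8 day WS. HY5-linked genes had 0 higher and 7 lower in 8 day Col-0 too, with 0 called in 4 day WS and in 8 day WS. Casparian strip genes had 0 higher in each, with 1 lower in 4 day WS, 5 in 8 day Col-0 and 2 in 8 day WS. Flavonoid genes had 0 called in 4 day WS, 2 lower in 8 day Col-0 and 1 lower in 8 day WS. The photosystem list had 4 higher and 0 lower in 4 day WS, 0 higher and 16 lower in 8 day Col-0, and 0 higher and 1 lower in 8 day WS. Whether these counts differ was not tested, and the tables differ in how many loci were called.

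The difference of a gene's change from that in 4 day WS or 8 day Col-0 was tested for the 341 gene and table pairs called in both, as the difference over its implied error against a normal distribution with Benjamini-Hochberg adjustment. Of these, 14 differences passed the adjusted limit of 0.05, 1 of 33 with 4 day WS and 13 of 308 with 8 day Col-0. PRX72 changed by -2.16 ± 0.27 at 4 days and -0.35 ± 0.19 at 8 days in the authors' deposited tables, a difference of -1.8 ± 0.33. AT2G39430 differed by -1.9 ± 0.45 and the peroxidase gene AT3G32980 by -1.13 ± 0.27, both past the same limit, each with the larger decrease at 4 days. RBCS1A was called at -0.35 ± 0.25 in 4 day Col-0, so the implied errors are not on a normal scale. The adjusted values are therefore approximate. Only genes called in both tables entered, which can overstate the change where the error is larger, as at 4 days for PRX72. With errors 1.5 times as large, 0 of the 341 differences passed.

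The changes with age, from the authors' deposited tables of 8 over 4 days, share the 4 day libraries with the flight comparison and are given side by side only. In flight roots 6.78% of loci were called with age, 3.33% higher and 3.45% lower at 8 days, and in ground roots 11.2%, 5.69% higher and 5.54% lower. SEN1 was listed with a change of -3.65 ± 0.78 with age in flight roots and was not listed in ground roots. bZIP1, OXS3, AT1G80440 and BT2 were likewise listed in flight, at -2.70 ± 0.47, -2.51 ± 0.38, -2.91 ± 0.60 and -1.39 ± 0.58, and not in ground roots, in the authors' deposited tables. Levels of SEN1 in flight roots were 1.51 FPKM at 8 days and 18.9 FPKM at 4 days in that authors' deposited table, where the 4 day level is scaled slightly differently. PRX72 changed by 0.75 ± 0.24 with age in flight roots and by -1.04 ± 0.22 in ground roots in the authors' deposited tables. CYP86A1 changed by 1.21 ± 0.46 with age in flight roots and 0.49 ± 0.33 in ground roots in the authors' deposited tables.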

How the data were processed

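Total RNA of dissected roots was made into SMART-Seq v4 and Nextera libraries from 10 ng with 8 PCR cycles, per the labels' protocols. Reads were handled with STAR 2.5.1b, Trimmomatic 0.36 and FastQC 0.11.2 besides Picard, Cuffdiff and Cufflinks on TAIR10, per the submitters' processing notes, which name no order, and the parameters are not stated there. The authors deposited, for each comparison, the loci whose q-value was at most 0.05, with a pooled FPKM per group, the log2 fold change, a test statistic (a score) and the p-value and q-value. No single replicate's level was given, 0 columns of per-sample values were left unused, and depth is unknown.

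From these deposited values the sign was set as flight over ground, and the standard error was taken as the size of the log2 fold change over that of the statistic. The authors' p-values rest on simulation, so a change with a wide interval can have a low q-value. The number tested was recovered from the deposited p-values and q-values. Names were matched to RefSeq TAIR10.1, as were transcript lengths and upstream windows of 250 bases.

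The genes named are the 12 highest and 12 lowest changes with at least 5 FPKM in one group, up to 8 called members of each of 64 gene lists (3596 distinct genes), the 8 highest levels per direction, genes called in 3 flight tables, and up to 10 with opposite directions. The values of 1 gene are not reported here. The members and lists were chosen with earlier results of these data known. Other list members named, and genes said to be so, were chosen after their values were seen. Differences between flight tables used a normal distribution with Benjamini-Hochberg adjustment over 341 pairs, and treat the implied errors as known. The steps were tested on simulated data. Alternatives were a q-value of 0.01, a log2 change of 1, minimum levels of 1 and 5 FPKM, single-gene loci, a transcript length class, a pseudocount of 1 FPKM and errors 1.5 times as large. Python 3.11.15, pandas 2.3.3, numpy 2.4.6, scipy 1.17.1 and matplotlib 3.10.9 were used.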

Additional observations from a re-analysis of the deposited data

Results flagged for a closer look

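In 14 genes the flight change in 4 day Col-0 roots differed from that in another flight comparison, by the approximate test of the difference itself at an adjusted limit of 0.05. Values are log2 changes of 4 day Col-0 minus the other, from the authors' deposited tables. Set against 4 day WS, RBCS1A differed by -1.33. Set against 8 day Col-0, the peroxidase genes PRX72 and AT3G32980 differed by -1.8 and -1.13, and AT2G39430 by -1.9. The transporter genes SIAR1 and UMAMIT14 differed by -1.14 and -1.64, CYP82F1 by -1.4 and the triterpene gene MRN1 by -2.23. The lipid-transfer genes AT3G22600 and AT4G12545 differed by -0.94 and -0.95, and the extensin-like gene AT5G06630 by -1.15. AT3G45070, which the naming rule does not cover and which was chosen after its value was seen, differed by -0.94. AT5G01870 and KIN1 differed the other way, by 0.99 and 1.27. With errors 1.5 times as large 0 of these differences passed. With pooled levels alone, no exact test over samples could be run.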

How the results depend on the processing

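No paired analysis was possible because the authors' deposited tables hold 1 pooled level per group and none per replicate, and for the same reason no replicate could be left out. With a q-value of 0.01 or less, 284 loci were higher and 468 lower, and with a log2 change of at least 1 in size, 102 were higher and 174 lower. Genes called with the same direction in 4 day WS numbered 0 at the stricter q-value, where the smallest WS q-value, 0.0113, could not pass, and 10 at the fold limit. Those shared with 8 day Col-0 numbered 158 and 36 under these settings. The counts of all loci higher and lower stayed within 1.5 times under the minimum levels, single-gene loci and the length class. Counts of some single lists moved further. In the length class histones numbered 3, against 7, higher, leucine-rich repeat kinases 2, against 12, lower, auxin genes 4, against 7, vacuolar pump genes 1, against 4, triterpene genes 1, against 3, and clock genes 0, against 2. Lipid-transfer genes numbered 2 higher and 5 lower, against 5 and 9. Photosystem genes numbered 0, against 5, lower at the stricter q-value and at the fold limit. Called ribosomal genes numbered 37 at the stricter q-value and 0 at the fold limit, while the Casparian strip count was 7 under both. With a pseudocount of 1 FPKM, 294 of 296 named genes moved by less than their error, 2 moved by more and 0 reversed. With errors 1.5 times as large, 0 of the 14 differences between flight tables passed. Depth was unknown, so no limit from it can be given.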
